A study of Rattus norvegicus with 4 samples.

Results

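The genes of the extracellular metalloproteases and their inhibitors were examined in the RNA-seq of primary rat Schwann cells (SCs), the myelinating glia of peripheral nerve. They comprise the matrix metalloproteinases (MMPs), the ADAMTS proteases (secreted metalloproteases with thrombospondin repeats), the ADAMTS-like proteins, which keep the repeats and lack the protease domain, and the tissue inhibitors of metalloproteinases (TIMPs). Members were taken by gene symbol from the table of counts, which gave 41 of 17949 genes: 21 MMPs, 13 ADAMTSs, 3 ADAMTS-like genes and 4 TIMPs. The primary SCs, from sciatic nerve, were grown with 10% serum, 4 μM forskolin and 5 ng/ml heregulin-β1 in both groups and were infected for 48 h. The Lenti-AS group (n = 2) received a lentivirus expressing the Egr2 promoter antisense RNA (Egr2-AS) from a vector with a DsRed reporter, and the Lenti-GFP group (n = 2) a control virus carrying GFP, so reporter and antisense RNA change together between the groups. The age, sex and strain of the rats are not given in the sources used here.

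MMPs cleave most proteins of the extracellular matrix and are made as inactive precursors, which the plasminogen system, furin-like proteases or other MMPs activate. The ADAMTS proteases have narrower targets, among them the large chondroitin sulfate proteoglycans, the propeptides of fibrillar collagens and von Willebrand factor. TIMPs bind the active site of MMPs and block it, and TIMP3 also inhibits ADAMTS4 and ADAMTS5. In peripheral nerve, MMPs act after injury on the blood-nerve barrier, the basal lamina, myelin proteins and growth-inhibiting proteoglycans.

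The Egr2-AS transcript itself was not analysed here, so its level does not check the labels. The samples held between 74024323 and 96185890 counts, and replicates differed by more than sampling noise. Lenti-AS 2 stands apart by its globin genes, which took 0.345% of its counts and at most 0.00108% in the other samples. Levels are given as CPM, the count of a gene scaled to library size after TMM normalisation. Of 13 SC markers, 11 were above 1 CPM in every sample, among them S100b, Ngfr and Erbb3, while Gap43 and Fabp7 were under 1 CPM throughout. Summed levels of SC markers were 7283 and 7294 CPM in Lenti-GFP and 9158 and 7973 CPM in Lenti-AS 1 and 2. The SC markers did not all move with that sum: of 12 tested, 9 had fitted values above 0 and 3 below. By edgeR, 1 was called higher and 1 lower, against 1.31% and 0.667% of all genes tested. The higher was Mbp, the gene of a myelin protein, at 29.6 and 32.1 CPM in Lenti-GFP and 42.0 and 43.6 CPM in Lenti-AS. Its log2 fold change was 0.47 (adjusted p = 0.0428, edgeR). The lower was Gfra3, a receptor of the artemin ligand, at 50.4 and 48.3 CPM in Lenti-GFP and 19.2 and 18.8 CPM in Lenti-AS. Gfra3 had a log2 fold change of -1.38 (adjusted p = 0.00385, edgeR). Cdh19, a cadherin, had a log2 fold change of -0.26 (adjusted p = 0.102, edgeR). Of 12 fibroblast markers, 6 were under 1 CPM in every sample, including Thy1, Dcn and Lum. The summed level of the 12 was 4526 and 4054 CPM in Lenti-GFP, 4903 CPM in Lenti-AS 1 and 3098 CPM in Lenti-AS 2. Most of that sum came from collagens. Pdgfrb, which is not a collagen, had 262 and 236 CPM in Lenti-GFP and 225 and 279 CPM in Lenti-AS. Pdgfra and Pi16 were also above 1 CPM in every sample. Sums were at most 4.44 CPM for 10 macrophage markers and 0.266 CPM for 7 neutrophil markers. The labels call the samples biological replicates, without saying whether they came from separate animals, so p-values measure the spread between these samples.

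In SCs expressing the Egr2-AS, 2 protease genes were lower, Adamts15 and Adamts2, and none was higher by edgeR's quasi-likelihood test. Of the 41 members, 28 had at least 10 counts in at least 2 samples and were tested. Calls required an adjusted p under 0.05 (Benjamini-Hochberg over all 12446 genes tested) and a change of 1.3-fold or more. The share called lower was 7.14% of the members tested and 0.667% of all genes tested, the shares called higher were 0% and 1.31%, and over both directions 1.98% of all genes were called. At an unadjusted p under 0.05 there were 7 members higher (25.0%, against 12.5% of all genes tested) and 5 lower (17.9%, against 9.37%). DESeq2 called the same 2 genes lower (7.14%, against 1.12% of all genes tested) and 3 genes higher, Adamts5, Mmp11 and Mmp15 (10.7% of the members, against 3.92%, and against 5.04% of all genes called in either direction), and limma-voom called 2 lower (7.14%, against 0.675% of all genes tested) and 0 higher (0%, against 1.21%). Both Lenti-AS samples lay above both Lenti-GFP samples in 13 members and below both in 8, which is 46.4% and 28.6% of the members, against 27.7% and 27.2% of all genes tested, and 54.9% of all genes had groups that did not overlap. The median log2 fold change was 0.14 over the members tested and 0.0071 over all genes tested, and without Lenti-AS 1 the members' median was -0.0043.

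**Figure D1:**
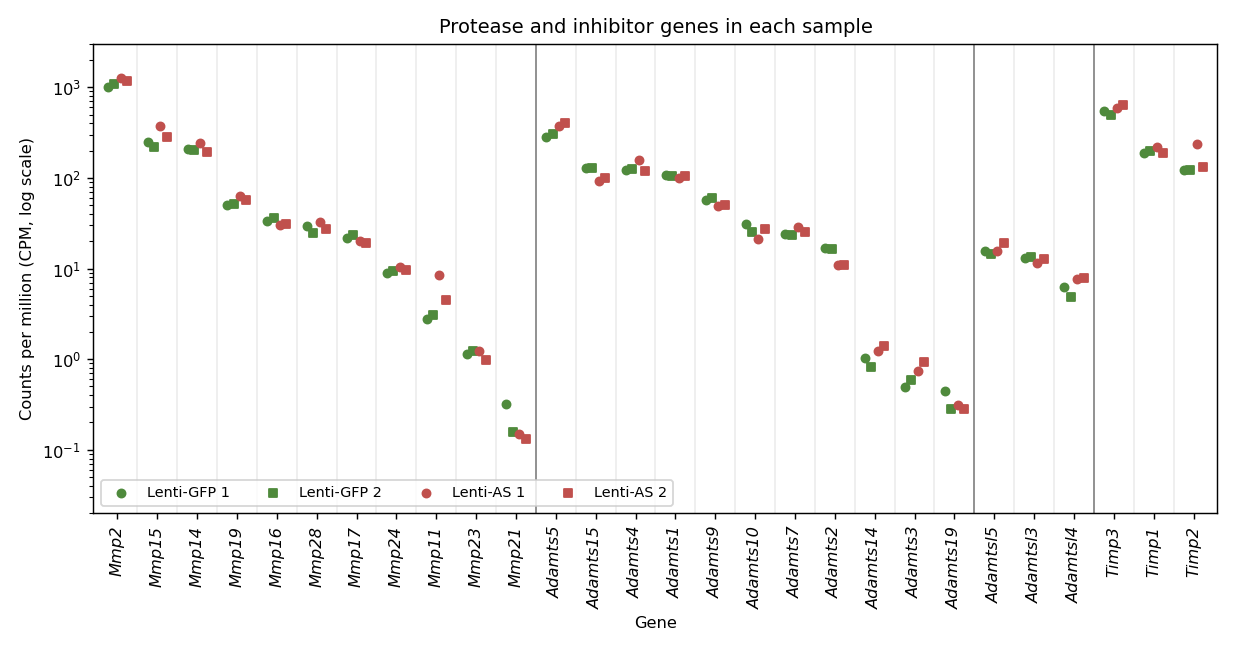
Level of each of the 28 tested genes in each sample, in CPM on a log scale, with Lenti-GFP samples in green and Lenti-AS samples in red (circles for sample 1, squares for sample 2) and vertical lines between the families. Both red symbols lie below both green symbols for Adamts15 and Adamts2 and above them for Adamts5, Mmp15 and Mmp11, while Timp2 is high in Lenti-AS 1. Levels are not divided by gene length, so they are to be compared within a gene.

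Of the 5 proteoglycan-cleaving ADAMTSs, edgeR called Adamts15 lower and none higher, with 3 at an unadjusted p under 0.05. DESeq2 also called Adamts5 higher. Over all genes tested, edgeR called 0.667% lower, 21.8% had an unadjusted p under 0.05 by edgeR, and DESeq2 called 3.92% higher. Adamts15, which encodes an enzyme that cleaves versican and aggrecan, had 129 CPM in both Lenti-GFP samples, 93.1 CPM in Lenti-AS 1 and 98.6 CPM in Lenti-AS 2. Its level fell from 129 ± 0.525 CPM (SD, n = 2) to 95.9 ± 3.94 CPM (SD, n = 2), a log2 fold change of -0.43 (standard error, SE, 0.0590; adjusted p = 0.0350, edgeR). The samples of each group lay close together and the groups did not overlap. Without Lenti-GFP 1 or Lenti-GFP 2 the adjusted p was 0.373 and 0.502 with log2 fold changes of -0.42 and -0.43, in fits that called 1 gene among all genes tested. In bulk RNA, fewer cells of a type and less RNA per cell cannot be told apart.

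Adamts5, the main aggrecan-cleaving enzyme of cartilage, was on the other side of 0 and just outside the threshold. Control samples held 284 and 306 CPM of it, and Lenti-AS samples 371 and 401 CPM. The groups did not overlap, and the log2 fold change was 0.39 (SE 0.0663, adjusted p = 0.0506, edgeR). It was called by DESeq2 (adjusted p = 3.2e-05), with library totals in place of TMM (adjusted p = 0.0430), without a filter on low counts (adjusted p = 0.0361) and without Lenti-AS 1 (log2 fold change 0.44, adjusted p = 4.9e-06). Without Lenti-AS 2 the log2 fold change was 0.33, under the fold required, with an adjusted p of 0.00013, and without Lenti-GFP 1 or 2 the adjusted p was 0.398 and 0.431.

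The other 3 genes of this group were not called. Adamts9, which cleaves versican, had 56.5 and 60.2 CPM in Lenti-GFP and 48.6 and 50.0 CPM in Lenti-AS (log2 fold change -0.24, SE 0.0711, adjusted p = 0.136 by edgeR). From DESeq2 its adjusted p was 0.0342, with a log2 fold change of -0.24 that fell short of the 1.3-fold required. Adamts1, the next coding gene beside Adamts5 in the RefSeq gene order, had 106 and 105 CPM in Lenti-GFP and 100 and 104 CPM in Lenti-AS, a log2 fold change of -0.0470 (SE 0.0579, adjusted p = 0.670). The neighbours therefore had fitted changes of 0.39 and -0.0470, the difference of which was not tested. Adamts4, another aggrecan-cleaving enzyme, had 121 and 126 CPM in Lenti-GFP, 158 CPM in Lenti-AS 1 and 118 CPM in Lenti-AS 2, so that its Lenti-AS samples lay on both sides of the control samples (log2 fold change 0.16, SE 0.133, adjusted p = 0.514). Without Lenti-AS 1 its log2 fold change was -0.0649.

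Of the procollagen N-propeptidases, which trim the amino-terminal propeptide from fibrillar collagens, Adamts2 fell and the 2 others were not called. Adamts2, the main enzyme of type I procollagen, had 16.8 and 16.3 CPM in Lenti-GFP and 10.8 and 11.1 CPM in Lenti-AS, from 1572, 1544, 948 and 832 counts. The group values were 16.6 ± 0.389 CPM and 10.9 ± 0.178 CPM (SD, n = 2 each), the log2 fold change was -0.60 (SE 0.0836) and the adjusted p was 0.0368 (edgeR). This is 66.1% of the control level, and the spread within each group was small beside the gap between them. The adjusted p was 0.370 without Lenti-GFP 1 (log2 fold change -0.57) and 0.445 without Lenti-GFP 2 (log2 fold change -0.62).

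The other N-propeptidase genes, Adamts3 and Adamts14, had low counts and fitted levels above the control. Adamts3, which also cleaves the precursor of the lymphatic growth factor VEGF-C, had 46 and 56 counts in Lenti-GFP and 65 and 70 counts in Lenti-AS (log2 fold change 0.62, SE 0.290, adjusted p = 0.274 by edgeR). Adamts14 had 95 and 77 counts in Lenti-GFP and 108 and 106 counts in Lenti-AS (log2 fold change 0.53, SE 0.249, adjusted p = 0.277). For both, the 2 Lenti-AS samples lay above the control samples once scaled for depth. Among the collagen genes of the fibroblast list, Col3a1, the chain of type III collagen, had 3261 and 2955 CPM in Lenti-GFP and 2198 and 2400 CPM in Lenti-AS (log2 fold change -0.43, SE 0.0755, adjusted p = 0.0520 by edgeR), and DESeq2 called it lower (adjusted p = 4.9e-06). Col1a1, a chain of type I collagen, had 841 and 721 CPM in Lenti-GFP, 2131 CPM in Lenti-AS 1 and 290 CPM in Lenti-AS 2, a spread that Adamts2 did not share.

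**Figure D2:**
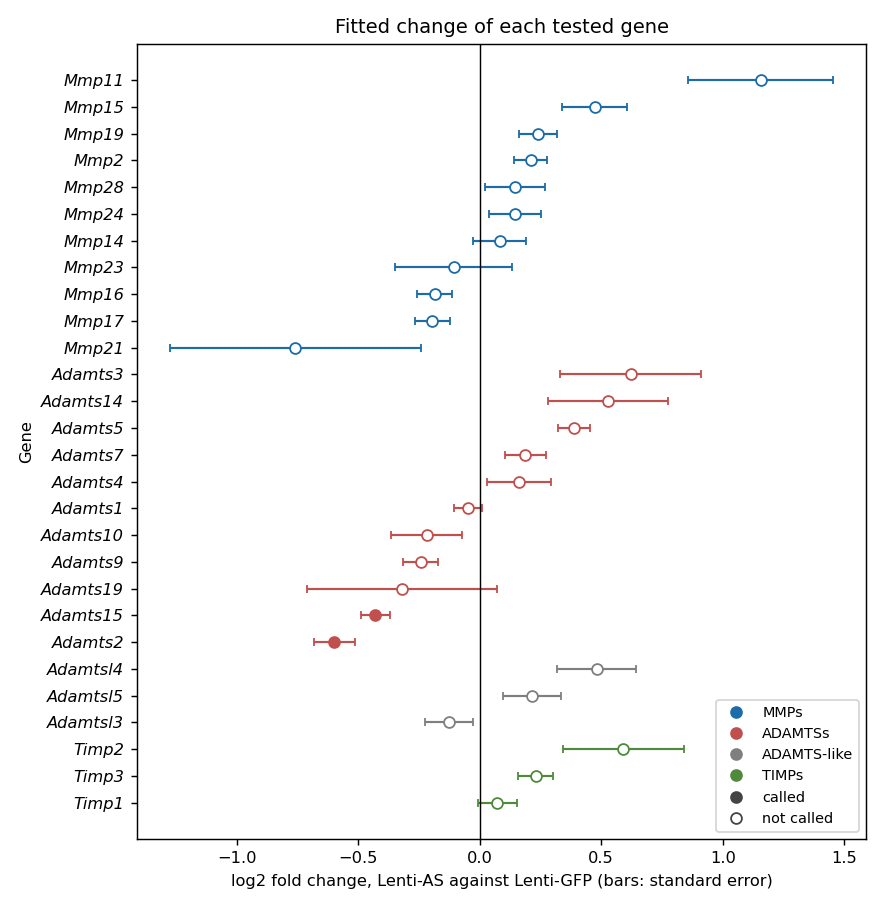
Fitted log2 fold change of each tested gene in Lenti-AS against Lenti-GFP with its standard error (SE), by family, with filled symbols for called genes. Adamts2 at -0.60 and Adamts15 at -0.43 are the filled symbols. Mmp11, at 1.16, has the highest value and an SE of 0.299.

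Of the remaining ADAMTSs none was called. Adamts7, which cleaves the cartilage oligomeric matrix protein COMP, was between 23.2 and 24.1 CPM in Lenti-GFP and between 25.3 and 28.7 CPM in Lenti-AS (log2 fold change 0.19, SE 0.0830, adjusted p = 0.255 by edgeR). Adamts10, which binds fibrillin microfibrils, overlapped between the groups, with 31.0 and 25.2 CPM in Lenti-GFP and 21.2 and 27.1 CPM in Lenti-AS. It was called lower only in the fit without Lenti-AS 2. Adamts19 had 21 to 42 counts per sample, and Adamts12 and Adamts18 had 24 and 26 counts over all samples and were not tested.

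The 3 ADAMTS-like genes, whose products bind fibrillin and other matrix proteins, were at most 19.1 CPM. Adamtsl4, mutated in inherited lens dislocation, had 6.25 and 4.80 CPM in Lenti-GFP and 7.64 and 7.77 CPM in Lenti-AS. The gap between its Lenti-GFP samples was wider than that between its Lenti-AS samples, and the log2 fold change was 0.48 (SE 0.161, adjusted p = 0.169 by edgeR). It passed the threshold without Lenti-AS 1 (adjusted p = 0.0246) and without Lenti-AS 2 (adjusted p = 0.0258). Adamtsl5 and Adamtsl3 had log2 fold changes of 0.22 and -0.13, with adjusted p-values of 0.338 and 0.493.

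Among the gelatinases, which degrade denatured collagen and basement membrane collagen, Mmp2 was counted in large numbers and Mmp9 was near 0. Mmp2 had 1008 and 1095 CPM in Lenti-GFP and 1259 and 1173 CPM in Lenti-AS. The groups did not overlap and differed 1.16-fold in the fit, and the gene was not called (log2 fold change 0.21, SE 0.0675, adjusted p = 0.158 by edgeR). Mmp9, the gelatinase that injured nerve and leukocytes are known for, had 7 and 2 counts in Lenti-GFP and 7 and 2 counts in Lenti-AS and was not tested.

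The 5 membrane-type MMPs of the table, which are held at the cell surface, were tested, and edgeR called none of them. Mmp15 had 248 and 221 CPM in Lenti-GFP, 369 CPM in Lenti-AS 1 and 282 CPM in Lenti-AS 2. The groups did not overlap, but the Lenti-AS samples differed 1.31-fold (log2 fold change 0.47, SE 0.133, adjusted p = 0.126 by edgeR, 0.00431 from DESeq2). The log2 fold change was 0.27 without Lenti-AS 1 and 0.65 without Lenti-AS 2, where the adjusted p was 2.5e-09. Mmp14, the main activator of pro-MMP2, had 210 and 205 CPM in Lenti-GFP and 245 and 194 CPM in Lenti-AS, and its log2 fold change of 0.0831 (SE 0.109, adjusted p = 0.690) became -0.0930 without Lenti-AS 1. Mmp14 thus overlapped between the groups.

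Mmp16 and Mmp17 lay below the control samples in both Lenti-AS samples. Mmp16 had 33.5 and 36.4 CPM in Lenti-GFP and 30.5 and 31.0 CPM in Lenti-AS (log2 fold change -0.19, SE 0.0713, adjusted p = 0.210 by edgeR). Mmp17, which is anchored by a lipid tail, had 21.9 and 23.2 CPM in Lenti-GFP and 20.1 and 19.3 CPM in Lenti-AS (log2 fold change -0.19, SE 0.0726, adjusted p = 0.201). Mmp24, a membrane-type MMP described in neurons, was between 8.85 and 10.5 CPM over all samples, with a log2 fold change of 0.14 (adjusted p = 0.469).

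Mmp11, or stromelysin 3, which is made as an enzyme already activated by furin inside the cell, had the highest fitted fold among the members. Its levels were 2.74 and 3.06 CPM in Lenti-GFP, 8.39 CPM in Lenti-AS 1 and 4.52 CPM in Lenti-AS 2, from 256, 290, 735 and 340 counts. Both Lenti-AS samples were above both control samples, and they differed 1.85-fold from one another. The log2 fold change was 1.16 (SE 0.299, adjusted p = 0.112 by edgeR, 0.00425 from DESeq2). It was 0.64 without Lenti-AS 1 (adjusted p = 0.0143) and 1.53 without Lenti-AS 2 (adjusted p = 7e-09). Furin, the gene of that activating enzyme, also differed between the Lenti-AS samples, with 37.9 and 24.2 CPM against 28.6 and 26.4 CPM in Lenti-GFP.

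Of the other MMPs, Mmp19, a secreted enzyme of basement membranes, had 49.7 and 51.3 CPM in Lenti-GFP and 62.6 and 56.6 CPM in Lenti-AS (log2 fold change 0.24, SE 0.0784, adjusted p = 0.165 by edgeR). Mmp28, or epilysin, overlapped between the groups at 24.7 to 32.8 CPM (adjusted p = 0.527). Mmp23 had 74 to 118 counts per sample and Mmp21 10 to 30. Neither was called, with adjusted p-values of 0.823 and 0.429.

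The TIMP genes were not called, and the 3 that were tested had fitted values above 0. Timp3, whose product is bound to the matrix and inhibits MMPs, ADAMTS4 and ADAMTS5, had 544 and 496 CPM in Lenti-GFP and 583 and 637 CPM in Lenti-AS. The Lenti-AS samples were both higher (log2 fold change 0.23, SE 0.0726, adjusted p = 0.152 by edgeR). From DESeq2 the adjusted p was 0.0412, with a log2 fold change of 0.23 that fell short of the 1.3-fold required. Timp1 had 187 and 197 CPM in Lenti-GFP and 217 and 187 CPM in Lenti-AS, which overlapped, with a log2 fold change of 0.0724 (SE 0.0815, adjusted p = 0.637) that became -0.0377 without Lenti-AS 1. Timp4 had 0, 6, 4 and 1 counts in Lenti-GFP 1 and 2 and Lenti-AS 1 and 2 and was not tested.

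Timp2, whose product both inhibits MMPs and takes part with MMP14 in the activation of pro-MMP2, differed more between the Lenti-AS samples than between the groups. It had 123 and 121 CPM in Lenti-GFP, 131 CPM in Lenti-AS 2 and 236 CPM in Lenti-AS 1. The control samples agreed within 1.02-fold, and the Lenti-AS samples differed 1.80-fold. The log2 fold change was 0.59 (SE 0.250, adjusted p = 0.240 by edgeR), 0.11 without Lenti-AS 1 and 0.95 without Lenti-AS 2, where the adjusted p was 5.5e-14.

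Lenti-AS 1 was the higher of the Lenti-AS samples in most of the members on which they disagreed. Of 25 members that averaged 1 CPM or more, 8 had Lenti-AS samples over 1.2-fold apart and 4 had Lenti-GFP samples over 1.2-fold apart, a limit set after the values had been seen. Over all 10251 genes of that level the shares were 18.9% and 7.94%. Lenti-AS 1 was higher for Timp2, Mmp11, Mmp15, Adamts4, Mmp14 and Mmp23, and lower for Adamts10 and Adamtsl5. The direction of such differences over all genes was not analysed here. Col1a1, outside these families, was also high in Lenti-AS 1, as was Sox10, a transcription factor of the SC lineage, with 163 CPM against 61.2 to 77.1 CPM in the other samples. Whether these differences between libraries share a source was not tested.

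**Figure D3:**
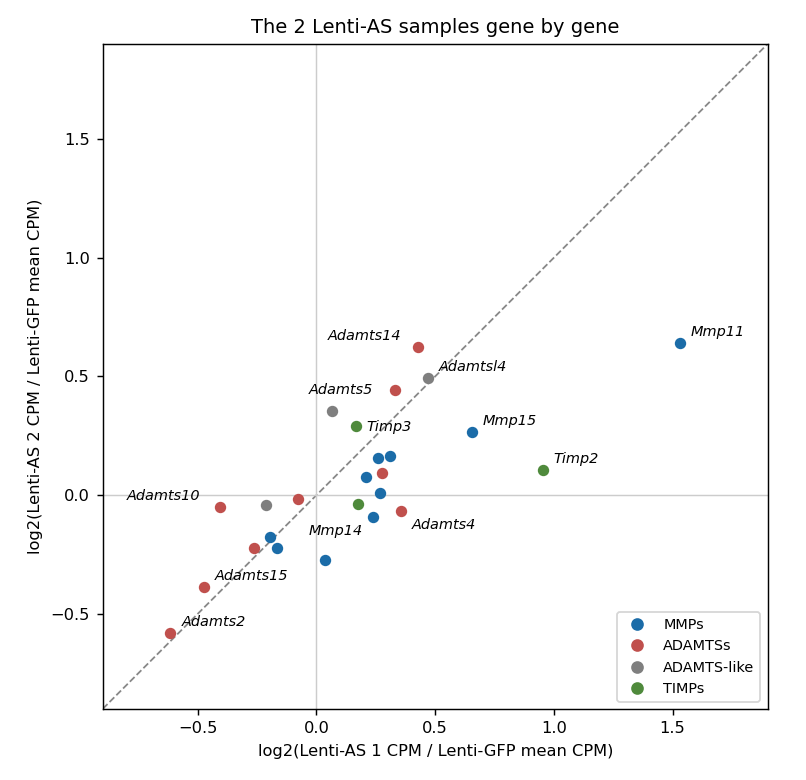
Log2 ratio of each Lenti-AS sample to the Lenti-GFP mean for the 25 genes of at least 1 CPM, Lenti-AS 1 on the horizontal and Lenti-AS 2 on the vertical axis, with a dashed line of equality and colours by family. Adamts2 and Adamts15 lie near the line at the lower left, and Adamts5 lies near it at the upper right. Timp2 and Mmp11 lie far to the right of it, with 1.80 and 1.85 times the CPM in Lenti-AS 1 of that in Lenti-AS 2.

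The members with almost no counts were mostly those of one gene cluster. In the RefSeq gene order, Mmp13, Mmp12, Mmp1b, Mmp3, Mmp1, Mmp10, Mmp8, Mmp27, Mmp20 and Mmp7 follow each other without another coding gene between them. They encode collagenases, stromelysins, the macrophage elastase, the tooth enamel protease enamelysin and matrilysin. Of the 9 of them in the table, none was tested, and together they had 18 and 18 counts in the Lenti-GFP samples and 11 and 21 counts in the Lenti-AS samples. The highest single value was 14 counts, for Mmp7 in Lenti-AS 2. Mmp13, or collagenase 3, had 3 counts in each Lenti-GFP sample and 0 in each Lenti-AS sample, and a count of 0 allows up to 3 counts, so no difference was detectable at this depth. These numbers cover counting error only. With Mmp9, Timp4, Adamts12 and Adamts18 they made up the 13 members not tested.

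The promoters of the cluster differed from those of the counted genes in the short motifs they hold. RefSeq promoters of the GRCr8 build, of which the 250 bases before the start site were searched on both strands, were matched to 32 of the 41 members. The motifs were AP-1 (TGANTCA, the site of the Jun and Fos factors, which reads the same on both strands), the EGR motif (GCGNGGGCG), the GC box (GGGCGG), which overlaps the EGR motif where they adjoin, and the TATA box (TATAAA). The AP-1 letters were in 7 of the 9 promoters of the cluster and in 0 of the 20 promoters of tested members, against 6.34% of all 33469 promoters of this length. The TATA letters were in 8 of 9 and 4 of 20, against 12.9% of all promoters, and the GC box in 0 of 9 and 16 of 20, against 30.5%. The EGR letters were in 3 of the 20, Adamts14, Mmp11 and Mmp24, and in 0 of 9, against 4.29%. A match is a description of the sequence, not a measured site. Only exact letters were counted, so near matches were left out, such as TGAGTAA in the promoter of Timp1, a tested member. The free base N also admits TGAATCA, the form in Mmp20 of the cluster. The shares therefore depend on the letters chosen. The 110 bases before the start site are shown for 4 genes of the cluster, to show the AP-1 and TATA letters that they share, with these letters in capitals.
Mmp13, chr8:12782719-12782828, plus strand: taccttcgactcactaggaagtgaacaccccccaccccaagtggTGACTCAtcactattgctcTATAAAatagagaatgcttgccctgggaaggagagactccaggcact
Mmp12, chr8:12866542-12866651, plus strand: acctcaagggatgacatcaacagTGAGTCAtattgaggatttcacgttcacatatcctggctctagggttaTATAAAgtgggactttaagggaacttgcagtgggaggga
Mmp3, chr8:12925171-12925280, plus strand: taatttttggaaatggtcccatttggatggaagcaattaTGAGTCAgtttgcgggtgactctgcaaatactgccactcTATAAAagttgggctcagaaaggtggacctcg
Mmp10, chr8:12974597-12974706, plus strand: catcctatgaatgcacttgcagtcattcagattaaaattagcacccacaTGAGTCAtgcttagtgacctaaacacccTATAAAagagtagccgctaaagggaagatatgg

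In these promoters the AP-1 letters begin 66, 87, 71 and 61 bases before the start site and the TATA letters 47, 39, 32 and 33 bases before it. The same window is shown for 4 counted members, Adamts2 as one of the called genes, Mmp11 and Timp2 as the genes of at least 1 CPM that differed most between the Lenti-AS samples, and Timp3 as a member whose Lenti-AS samples were both higher. Capitals mark GC boxes on either strand and, in Mmp11, the EGR letters that begin 57 bases before the start site.
Adamts2, chr10:35421920-35422029, plus strand: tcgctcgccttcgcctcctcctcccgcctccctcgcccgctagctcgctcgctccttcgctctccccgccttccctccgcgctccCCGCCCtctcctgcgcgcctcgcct
Mmp11, chr20:12730174-12730283, plus strand: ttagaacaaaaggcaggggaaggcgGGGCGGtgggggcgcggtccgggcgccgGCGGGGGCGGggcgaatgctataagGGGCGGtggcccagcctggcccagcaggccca
Timp2, chr10:104089215-104089324, minus strand: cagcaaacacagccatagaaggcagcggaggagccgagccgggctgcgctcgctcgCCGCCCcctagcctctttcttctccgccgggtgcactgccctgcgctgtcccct
Timp3, chr7:19459559-19459668, minus strand: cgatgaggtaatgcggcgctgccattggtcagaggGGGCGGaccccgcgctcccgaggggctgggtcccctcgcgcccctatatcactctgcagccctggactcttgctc

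None of these 4 windows holds the AP-1 or TATA letters. Promoters of Adamts15, Adamts5, Mmp2 and Mmp14 were not analysed here, nor were those of Adamts19, Mmp9, Mmp16, Mmp17 and Mmp19. The shares of tested members above therefore cover 20 of the 28. For each matched member the first entry of its symbol was searched, while the shares of all promoters count every entry. Of the 41 members, 15 overlap another gene in the RefSeq annotation, and the strand setting of the counting is not given in the sources used here, so reads of overlapping genes on opposite strands may not be told apart. Timp1, Timp3 and Timp4 overlap Syn1, Syn3 and Syn2, which encode synapsins of neurons, and these had at most 0.732, 3.87 and 0.0532 CPM in any sample. Chchd10, which overlaps Mmp11, had at most 3 counts in a sample.

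Genes that act on or beside these proteases were taken from lists written for this purpose. In the list of the plasminogen system and other activators of pro-MMPs, 10 of 13 genes were tested. Of the 10, 1 was called lower and 0 higher by edgeR, against 0.667% and 1.31% of all genes tested. The median log2 fold change was -0.0459. By edgeR, 2 of the 10 had an unadjusted p under 0.05, against 21.8% of all genes tested. The called gene was Serpine2 (protease nexin 1), a secreted inhibitor of thrombin and the plasminogen activators, with 447 and 467 CPM in Lenti-GFP and 267 and 286 CPM in Lenti-AS (log2 fold change -0.72, SE 0.0599, adjusted p = 0.0144, edgeR). Plat, the tissue plasminogen activator, was between 451 and 505 CPM over all samples, with a log2 fold change of -0.0559 (adjusted p = 0.666). Serpine2 therefore fell in both Lenti-AS samples while the groups overlapped for Plat. Of the 10, 7 had fitted values below 0 and 3 above. Plaur, Pcsk6 and Plau, the last under 1 CPM, were also below the controls in both Lenti-AS samples. They were not called, with log2 fold changes of -0.33, -0.57 and -0.72 (adjusted p = 0.280, 0.132 and 0.233, edgeR).

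In the list of surface inhibitors, inducers and clearance receptors, 9 of 13 genes were tested and neither edgeR nor DESeq2 called any, with 2 at an unadjusted p under 0.05 by edgeR and a median of 0.0041. Reck, a membrane-anchored MMP inhibitor, had 26.2 and 24.5 CPM in Lenti-GFP and 30.0 and 31.1 CPM in Lenti-AS (log2 fold change 0.27, adjusted p = 0.110 by edgeR). The list of other matrix proteases had 15 of 22 genes tested, 0 called by edgeR, 4 at an unadjusted p under 0.05 and a median of 0.0549. DESeq2 called 1 of them higher, against 3.92% of all genes tested. This was Pcolce, an enhancer of procollagen C-proteinase. Pcolce had 23.0 and 23.5 CPM in Lenti-GFP and 34.0 and 27.6 CPM in Lenti-AS (adjusted p = 0.0209 by DESeq2 and 0.114 by edgeR). The list of proteoglycan and glycoprotein substrates and partners had 14 of 20 genes tested and 0 called by edgeR or DESeq2. Of the 14, 4 had an unadjusted p under 0.05 by edgeR, and the median was 0.0062. The counts at this unadjusted p stand beside a share of 21.8% over all genes tested by edgeR. Vcan, the gene of versican, a substrate of ADAMTS15, had 32.8 and 33.8 CPM in Lenti-GFP and 31.6 and 34.8 CPM in Lenti-AS. Its groups overlapped, with a log2 fold change of -0.0047 (SE 0.0749, adjusted p = 0.978). Sdc4, a cell-surface heparan sulfate proteoglycan, had the lowest adjusted p of this list and a fold change of 1.24, under the 1.3-fold required, with 558 and 588 CPM in Lenti-GFP and 461 and 464 CPM in Lenti-AS (log2 fold change -0.31, SE 0.0537, adjusted p = 0.0520).

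**Figure D4:**
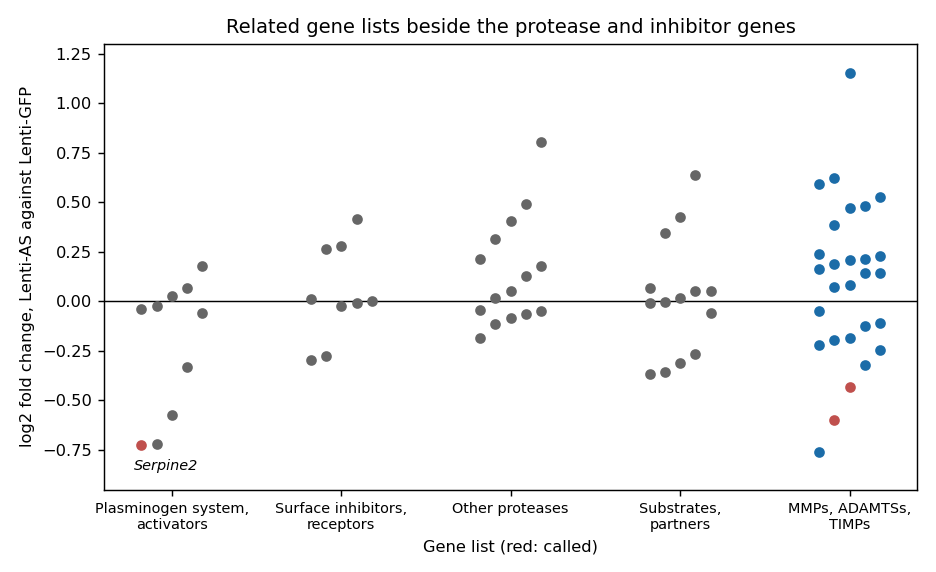
Log2 fold change in Lenti-AS against Lenti-GFP of the tested genes of 4 related lists and of the 28 protease and inhibitor genes, 1 point a gene, red where called and otherwise grey or, for the protease and inhibitor genes, blue. Serpine2 at -0.72 is the red point of the related lists, and Adamts2 and Adamts15 are the red points on the right.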

How the data were processed

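RNA-seq counts of 4 samples of rat SCs were analysed, 2 Lenti-GFP and 2 Lenti-AS. Reads (paired-end, 50 bp) were aligned by the authors to rn6 and assigned to RefSeq exons with featureCounts. The deposited values are raw whole-number counts. The paper names hisat2 as the aligner and the submitters' processing notes name GSNAP. The strand setting is not given in the sources used here. A row that repeats the header was dropped. Testing used edgeR 4.0.16 (R 4.3.3; TMM, glmQLFit with default settings, glmQLFTest) for genes that reached 10 counts in 2 or more samples, and p-values were adjusted over the 12446 genes. Standard errors were computed from the F statistic. Alternatives were DESeq2 1.42.0, limma-voom (limma 3.58.1), other scalings, filters and cut-offs, a replicate block and leaving out each sample. Some marker and overlapping genes are not reported here. Members, lists and tests were chosen with earlier results of these data known. Genes named with values were, by rule, the called members, those with an unadjusted p under 0.05, Timp1 to Timp4, Mmp2, Mmp9, Mmp14, the 10 members with the highest counts and the member nearest to the threshold, to which other members were added. CPM values rest on at least 74024323 counts per sample. The smallest two-sided p of an exact permutation test is 0.333 with 2 samples per group.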

Additional observations from a re-analysis of the deposited data

How the results depend on the processing

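Against 0 members higher (163 of all genes), DESeq2 called 3 (488 of all genes), library totals 1 (210) and no low-count filter 1 (211). Against 2 lower (83 of all genes), the replicate block called 0 (14 of all genes) and a fold change of at least 1.5 left 1 (43). Leaving out one sample gave 0 to 4 higher and 0 to 3 lower, in fits that called 0 to 1266 of all genes higher and 1 to 271 lower (the 4 are from the fit without Lenti-AS 2, which called 1266), and a members' median log2 fold change of -0.0043 (without Lenti-AS 1) to 0.19. Adamts15 and Adamts2 were called lower in every fit but those with the block (adjusted p = 0.0905 and 0.0982, edgeR) and without Lenti-GFP 1 or 2, and, for Adamts15, at 1.5-fold. Both were below 0 in every fit. Fits without a Lenti-GFP sample called 1 gene in all, and the lone sample of a group is assumed to vary like the others. Same-numbered samples share no stated culture or day and did not deviate together (correlation -0.0176 across genes), and the block left 3 genes higher and 14 lower among all genes. Signs changed for 3 of the members named by rule, in each without Lenti-AS 1, giving ranges of -0.0649 to 0.36 for Adamts4, -0.0930 to 0.24 for Mmp14 and -0.0377 to 0.17 for Timp1. Library totals moved the median log2 fold change of all genes from 0.0071 to 0.039. Where a call changed, the cause was not tested. Depth limits the 13 members that were not tested, of which none exceeded 14 counts in a sample.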
